A study of Mus musculus with 2 samples.

Results

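Annotated transcript models that differ from the most read model of their gene by a cassette exon were examined in long-read libraries of mouse heart. A member was a Known model, that is one with the structure of a GENCODE M21 transcript, of a protein-coding gene, with at least 3 reads in each library and fewer reads over both libraries than another Known model of the gene, here called the leading model. Its first exon overlapped that of the leading model, and an internal exon of one model lay wholly in an intron of the other. The rule took 393 models in 353 genes, out of 18449 Known models of protein-coding genes with a read and out of 1501 non-leading ones that reached the same read minimum. Of the other models at that minimum, 423 had a first exon elsewhere and 685 shared the first exon but had no such internal exon. The heart tissue came from B6CASTF1/J animals, the F1 hybrid of a C57BL and a CAST strain, female and at an age of 2 months, with no treatment given in the labels and 2 µg of total RNA per library. The labels gave 1 group with 2 biological replicates, so no contrast between conditions existed. They numbered the sampled animals differently, but gave both libraries the same donor identifier, so that the spread between replicates may be technical.

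Replicate 1 held 905154 reads and replicate 2 held 745375. Of these, 637527 and 524236 lay on Known models of protein-coding genes, and a level in CPM (reads per 1000000) is taken on the 859191 and 707758 reads of annotated genes. A model without a read could still have been present at up to 3.49 CPM in replicate 1 and 4.24 CPM in replicate 2. Intervals, floors and p-values cover counting error only, since the reads carried no stated molecular identifiers. Heart muscle markers were read for 8 of 8 genes in both libraries and summed to 46628 and 49571 CPM, red cell genes summed to 31814 and 29122 CPM, and fibroblast genes to 1518 and 1478 CPM. The reads therefore came from mixed tissue, and the cell type that used an exon cannot be told apart here. Neuronal markers summed to 2.33 and 2.83 CPM, with Syp at 0 in both libraries.

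A cassette exon is an internal exon that the spliceosome either joins to both neighbours or leaves out together with the introns around it. If its length is a multiple of 3, the reading frame downstream is the same in both forms and the proteins differ by a short insert. If not, the frame shifts, which often brings a stop codon early, and an early stop can expose the messenger RNA to nonsense-mediated decay. Mutually exclusive exons are neighbouring exons of which each transcript holds 1, often copies of each other. Striated muscle is known for many exons of both kinds, in contractile, signalling and membrane traffic genes.

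The short exons show how small the difference between such isoforms can be. They are printed from the GENCODE M21 transcripts on mm10, 5′ to 3′ on the strand of the gene, with the cassette exon in capitals and 12 bases of each neighbouring exon in lower case. The reference is that of the annotation and not a sequence read from these hybrid animals. The first is in Dnm2, the large GTPase of membrane fission (chr9:21490658-21490669, plus strand), and the next are in Anxa6, a calcium-dependent membrane binder (chr11:54987051-54987068, minus strand), Tmem184b (chr15:79363658-79363678, minus strand) and the transcription factor Mef2a (chr7:67244521-67244544, minus strand). The next 2 are in Ndrg2 (chr14:51911086-51911127, minus strand) and in Gnas, which codes for the stimulatory G protein alpha subunit (chr2:174336747-174336791, plus strand). The last, in the endothelial adhesion gene Pecam1 (chr11:106662002-106662024, minus strand), is the exception of this set, since its length is not a multiple of 3.
Dnm2: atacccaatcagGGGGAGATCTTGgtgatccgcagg
Anxa6: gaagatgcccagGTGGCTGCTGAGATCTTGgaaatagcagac
Tmem184b: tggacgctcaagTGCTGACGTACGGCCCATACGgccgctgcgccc
Mef2a: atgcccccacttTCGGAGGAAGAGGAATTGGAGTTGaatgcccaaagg
Ndrg2: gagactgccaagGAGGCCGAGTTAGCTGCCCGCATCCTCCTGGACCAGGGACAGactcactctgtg
Gnas: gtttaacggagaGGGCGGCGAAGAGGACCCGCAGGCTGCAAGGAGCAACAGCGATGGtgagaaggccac
Pecam1: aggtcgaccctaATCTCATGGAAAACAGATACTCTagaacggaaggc

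Most members differed from the leading model by 1 exon and nothing else in their introns. A single cassette exon between the same splice sites separated 341 of the 393 pairs (86.8%). The leading model held it in 199 of these and the member in 142, so both skipping and inclusion were found as the lesser form. A run of neighbouring exons separated 18 pairs, mutually exclusive exons 13, several separate differences 12, and 9 more pairs had an exon or a run with another splice site beside it. The name cassette exon therefore holds in the strict sense for most but not all members. All other introns were the same in 379 pairs (96.4%). One member was found in 318 genes, 2 in 31 genes, 3 in 3 genes, and 4 in App, the amyloid precursor protein gene.

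The members were minor in reads. They held 6144 reads in replicate 1 (0.964% of the reads on Known models of protein-coding genes) and 5230 in replicate 2 (0.998%), from 3 to 340 reads each with a median of 10 in replicate 1, and from 3 to 349 with a median of 8 in replicate 2. Their median level was 11.3 CPM. Only 137 members reached 10 reads in each library and 47 reached 20. At the edge of the rule, 73 members had exactly 3 reads in the library with fewer, with mean shares from 0.220% to 56.3% (median 20.0%). The 129 models just outside it, with 2 reads there, had mean shares from 0.593% to 66.7% (median 17.7%).

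The 393 pairs held 419 distinct cassette exons, and the coding ones were shorter than the other coding exons of the same transcripts. The median length of all was 91 bases, with quartiles of 57 and 128 and a range from 12 to 2746. By the annotated coding sequence 291 exons were wholly coding, 62 were partly coding, 58 lay in the 5′ UTR, 3 in the 3′ UTR, and 5 in models without coding sequence. The 291 coding exons had a median of 87 bases, against 114 (quartiles 83 and 152) for the 2948 other internal coding exons of the same leading models. Exons of at most 27 bases made up 18 of the 291 (6.19%), against 7 of the 2948 (0.237%). Coding exons that the same structural rule found in annotated models that were not members were closer, with a median of 106 bases and 222 of 6967 at most 27 bases long (3.19%), or 193 of 4435 where both models were protein-coding (4.35%). Of those 18 short exons 17 were multiples of 3, and Pecam1 held the remaining one. Base composition differed less, with a median GC content of 50.0% against 50.5%. These are descriptions of annotated exons that the rule selected by their reads, and no test was applied to them.

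**Figure D1:**
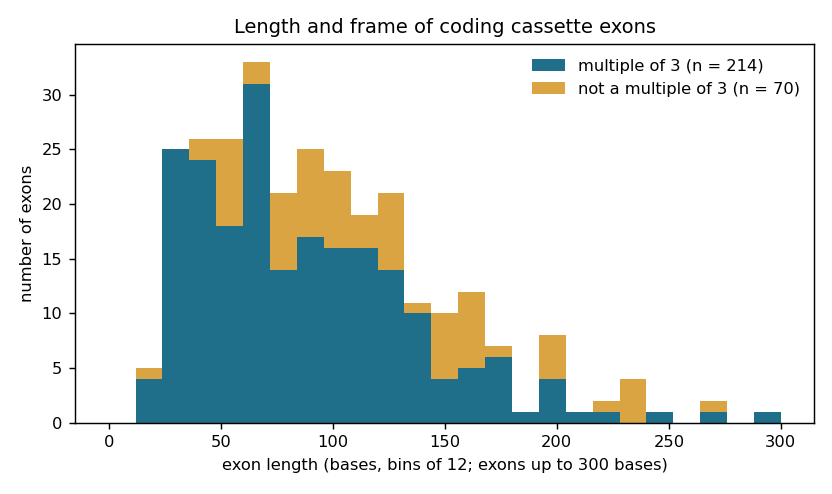
Number of coding cassette exons (y axis) by length in bins of 12 bases (x axis), stacked by whether the length is a multiple of 3, for exons of up to 300 bases. The 214 exons that are multiples of 3 are most common below 75 bases, and the 70 that are not lie mostly between 36 and 170 bases.

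Coding cassette exons were mostly multiples of 3. This held for 218 of 291 (74.9%), and for 215 of 271 (79.3%) where both models of the pair were annotated as protein-coding. The other internal coding exons of the same leading models were multiples of 3 in 1162 of 2948 cases (39.4%). Coding exons found by the same structural rule in annotated pairs of 2 protein-coding models that were not members gave 2551 of 4435 (57.5%). Where the member held the exon, 99 of 115 (86.1%) were multiples of 3, against 119 of 176 (67.6%) where the leading model held it. In pairs with a model annotated as subject to nonsense-mediated decay or as non-coding, only 3 of 20 (15%) were. The share was lower as well for exons in the 5′ UTR, with 20 of 58 (34.5%), and for partly coding exons that hold a start or stop codon, with 24 of 62 (38.7%).

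The annotated proteins followed the length of the exon in most pairs. Of the 207 pairs of protein-coding models with a single coding exon between shared sites, 183 (88.4%) had an exon that was a multiple of 3, and 178 of those 183 (97.3%) kept both the start and the stop codon. Of the 24 with another length, 15 kept the start and used another stop, 7 kept the stop and used another start, and 2 changed both. Of the 62 partly coding exons, 29 held the start codon and 33 the stop codon. Over all members, 266 (67.7%) shared start and stop with the leading model, 69 had another stop, 35 another start, 6 both, and 17 pairs lacked a coding sequence in 1 or both models.

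Members whose exon kept the frame had higher shares. The share is the member's part of the reads of member and leading model, and its mean is over both replicates. Among single coding exons between shared sites, with models of any type, multiples of 3 made up 23 of 34 members with a mean share below 10% (67.6%) and 35 of 50 from 10% to 20% (70%). They made up 37 of 42 from 20% to 30% (88.1%), 42 of 44 from 30% to 40% (95.5%) and 46 of 51 above (90.2%). The median share was 29.0% for the 183 in-frame single exons and 18.5% for the 24 out-of-frame ones. It was 9.33% for the 15 members annotated as decay targets, 18.3% for the 13 of type processed transcript, and 24.8% for the 54 single exons in the 5′ UTR. Since 3 reads in each library were required, a low share could be seen only in genes with many reads, so that shares and read depth are linked by the rule.

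**Figure D2:**
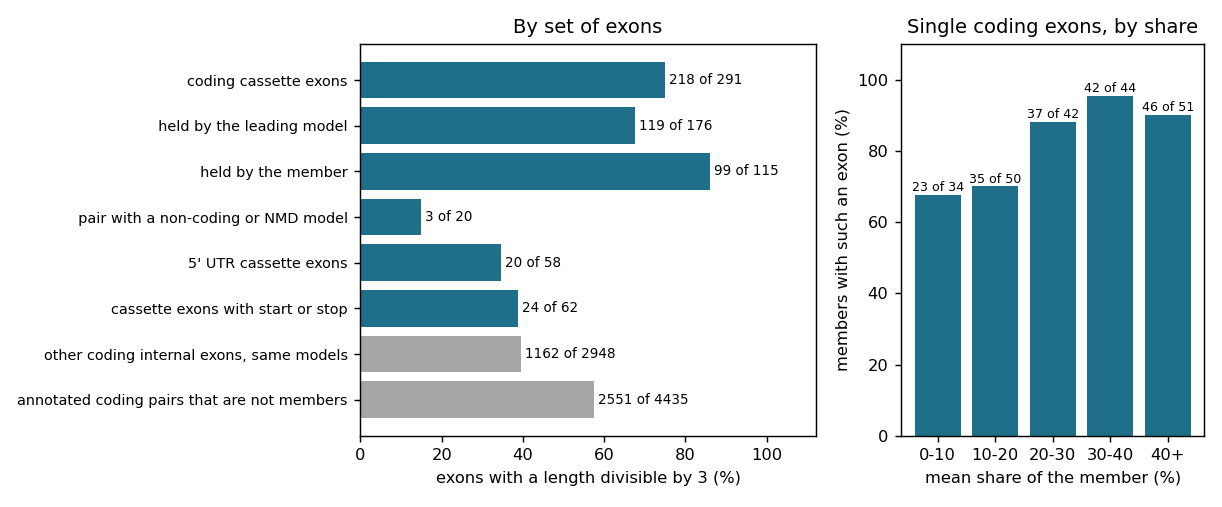
Percent of exons with a length divisible by 3 by exon set (left, bars, with counts; grey bars are annotated exons outside the members) and percent of members with such an exon by mean share (right, single coding exons). All coding cassette exons reach 74.9% and those held by the member 86.1%. The grey bars are at 39.4% for other coding internal exons of the leading models and 57.5% for annotated coding pairs that are not members. The bars at the right are above 85% from a share of 20% up.

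Shares covered a wide range, and no member was called as different between the 2 libraries. The median share was 27.3% in replicate 1 and 25.6% in replicate 2, the mean shares ran from 0.0909% to 56.3%, and their quartiles were 13.7% and 39.4%. The median absolute difference between libraries was 5.42 percentage points and the greatest 40.2, and 199 of 393 members were higher in replicate 2. In 47 members the reads exceeded those of the leading model in 1 library. Shares were compared between the libraries with two-sided Fisher's exact tests over all 4370 non-leading Known models with at least 10 reads of the pair in each library, adjusted by the Benjamini-Hochberg method. At an adjusted p below 0.05 this called 1 model (0.0229%), a Cox4i1 model that is no member, and 0 of the 366 members tested (0%). At an unadjusted p below 0.05 were 13 members (3.55%), against 90 of all 4370 models (2.06%). The same test against all other Known models of the gene called 0 of 374 members, and the test on exon inclusion called 0 of 373, with 13 and 10 at an unadjusted p below 0.05. In a simulation of this comparison, changes were placed in models drawn from all 4370 and not from the members alone. Of models with an 8-fold change of the odds 22% were called, and of those with a 2-fold change 2%. At an unadjusted p below 0.05 were 64% and 16%. Differences of that size were thus mostly not detectable after adjustment over all tested models. Detection among the members alone was not measured. The member rule also required a minimum of reads in each library, which left out models absent or nearly absent in either. The lack of calls among the members therefore does not show that the libraries were alike.

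**Figure D3:**
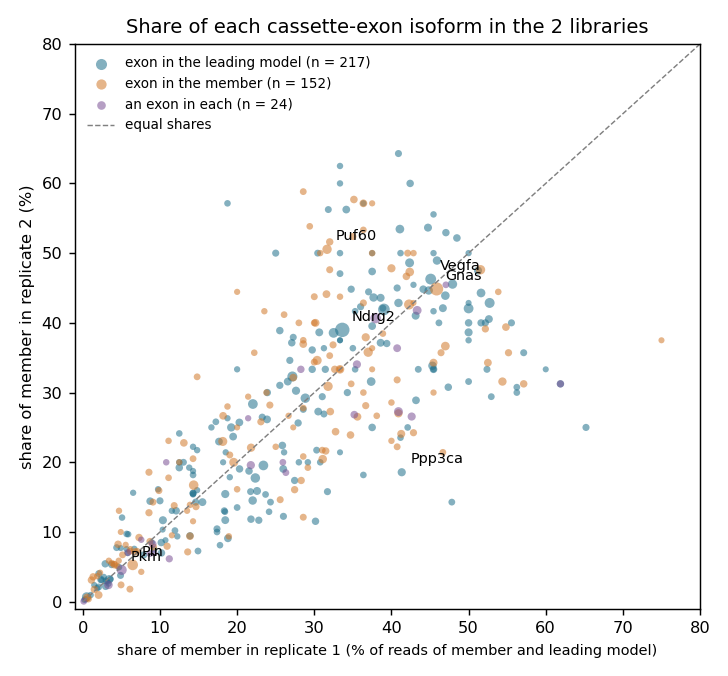
Share of each member in replicate 1 (x axis) against replicate 2 (y axis), in percent of the reads of member and leading model, with larger points for more reads and colour for the model that holds the exon. Points scatter around the dashed line of equal shares, and those of Ndrg2 and Gnas, with most reads, lie close to it, while Puf60 and Ppp3ca lie apart from it.

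The most read members carried their exon difference at mean shares from about 5% to 46%. Ndrg2, a member of the NDRG family of stress-responsive genes, led with 340 and 349 reads of the form without its 42-base exon, against 671 and 546 reads of the form with it. The share was 33.6% in replicate 1, with a 95% Wilson interval from 30.8 to 36.6, and 39.0% in replicate 2, from 35.9 to 42.2. Both forms were thus common in both libraries, and the difference had an adjusted p of 1 (Fisher's exact test, unadjusted p = 0.0169). Gnas had 260 and 201 reads with its 45-base exon against 307 and 247 without. Its shares were 45.9% (41.8 to 50.0) and 44.9% (40.3 to 49.5), close to each other. Over all Known models of the gene, mean inclusion of the exon was lower, at 34.1%, since other models also skipped it. The forms of Gnas are known as long and short alpha subunit, and the splice site beside the exon also shifted by 3 bases, so that the coding sequences were 1182 and 1140 bases long.

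Vegfa, the endothelial growth factor, and Srl, the calcium-binding sarcalumenin of the sarcoplasmic reticulum, showed nearly equal shares in both libraries. Vegfa had 101 and 87 reads without a 72-base exon that codes for part of the basic segment known to bind heparan sulphate, against 123 and 101 with it, or shares of 45.1% and 46.3%. The exon (chr17:46022277-46022348, minus strand) is printed because its run of lysine and arginine codons carries that segment.
Vegfa: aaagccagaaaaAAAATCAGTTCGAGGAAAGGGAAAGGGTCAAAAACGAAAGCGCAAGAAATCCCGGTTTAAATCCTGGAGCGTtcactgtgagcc
Srl had 128 and 135 reads without a 1311-base coding exon against 200 and 187 with it, or 39.0% and 41.9%. That exon was the longest single cassette exon among the members. When reads of unannotated spliced and incomplete models were added, its inclusion fell from 61.0% to 13.5% in replicate 1, over 1594 reads, so that most reads of the gene at this place lay on models outside the pair. Below, inclusion over all spliced models is taken on Known models together with these.

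Other frequent members had in-frame exons of 18 to 207 bases. Anxa6 without its 18-base exon had 66 and 63 reads against 177 and 132, or 27.2% and 32.3%. Fez2, an adaptor of kinesin transport, had 74 and 55 reads with an 81-base exon against 101 and 74 without, or 42.3% and 42.6%. Both replicates thus gave shares within 6 points of each other. Pja2, a ubiquitin ligase, had 60 and 53 reads without its 186-base exon against 60 and 73, or 50.0% and 42.1%. Slain2, a microtubule plus-end protein, had 52 and 59 without a 78-base exon against 108 and 94, or 32.5% and 38.6%. Aplp2, a relative of App, had 54 and 57 without a 168-base exon against 191 and 144, or 22.0% and 28.4%. In these 3 genes the exon was in the leading model. Ybx3, a cold shock domain RNA-binding protein, had 50 and 50 reads with a 207-base exon against 298 and 249 without, or 14.4% and 16.7%.

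**Figure D4:**
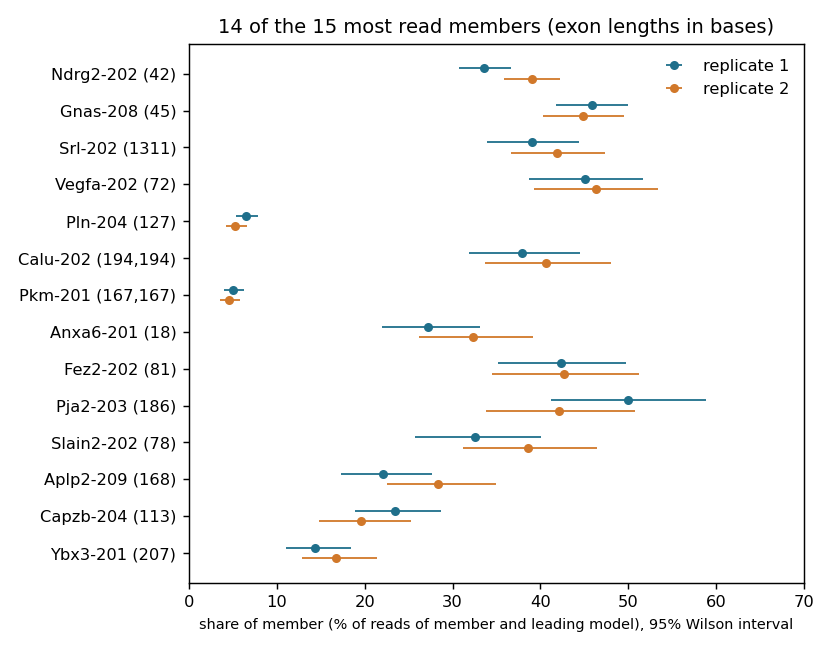
Share of 14 of the 15 most read members in replicate 1 and replicate 2 (points) with Wilson 95% intervals (lines), in percent of the reads of member and leading model; exon lengths in bases are in brackets. The 2 intervals of each member overlap, and Pln and Pkm lie near 5% while the others lie above 14%.

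In the 5′ UTR the exon changes the leader of the messenger RNA and not the protein. Pln, the inhibitor of the cardiac calcium pump, had 98 and 70 reads with a 127-base leader exon against 1418 and 1256 without it, or 6.46% and 5.28%. The splicing regulator Hnrnph2 had 50 and 40 reads with a 45-base leader exon against 47 and 44 without, and Gnb1, a G protein beta subunit, had 32 and 31 reads without a 49-base one against 30 and 39. Slc27a1, a fatty acid transporter of muscle, had 17 and 22 reads without a 107-base leader exon against 21 and 19 with it. In each of these 3 genes the order of the forms differed between the libraries.

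Pairs of mutually exclusive exons made up 13 members, all with the same start and stop codon. In 8 pairs the exons had equal length, and in the other 5 (Itga7, Tcf3, P4ha2, Plpp1 and Slc25a3) the lengths differed by 12, 9, 6, 3 and 3 bases, all multiples of 3. The 2 exons lay from 38 bases apart in Acp1 to 16389 bases apart in Plpp1. Counted position by position without gaps, 7 of the equal-length pairs had the same base at 71.7% of positions in Rab6a, 65.9% in Flot2, 65.5% in Calu, 61.7% in Pkm, 59.2% in P4ha1, 56.1% in Acp1 and 48.1% in Ate1. The exons of Rab6a, a GTPase of Golgi traffic, Pkm, the pyruvate kinase gene, and Slc25a3, the mitochondrial phosphate carrier, are printed to show this likeness, with the exon in capitals and the shared neighbouring exons in lower case. Their positions are chr7:100629666-100629771 for Rab6a-202 and chr7:100629838-100629943 for Rab6a-201 (plus strand), chr9:59675568-59675734 for Pkm-201 and chr9:59675029-59675195 for Pkm-202 (plus strand), and chr10:91121922-91122043 for Slc25a3-201 and chr10:91122207-91122331 for Slc25a3-206 (minus strand).
Rab6a-202: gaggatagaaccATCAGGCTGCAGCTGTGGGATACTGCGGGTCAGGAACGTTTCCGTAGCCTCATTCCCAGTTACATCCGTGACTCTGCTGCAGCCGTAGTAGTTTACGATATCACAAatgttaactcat
Rab6a-201: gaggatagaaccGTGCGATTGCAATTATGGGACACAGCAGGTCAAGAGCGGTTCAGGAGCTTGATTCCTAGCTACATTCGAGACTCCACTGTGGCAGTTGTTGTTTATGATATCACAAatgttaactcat
Pkm-201: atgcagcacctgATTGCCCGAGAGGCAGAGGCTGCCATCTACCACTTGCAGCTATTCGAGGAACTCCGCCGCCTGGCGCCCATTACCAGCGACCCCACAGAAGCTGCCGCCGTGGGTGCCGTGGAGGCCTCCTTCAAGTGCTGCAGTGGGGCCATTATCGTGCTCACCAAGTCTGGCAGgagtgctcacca
Pkm-202: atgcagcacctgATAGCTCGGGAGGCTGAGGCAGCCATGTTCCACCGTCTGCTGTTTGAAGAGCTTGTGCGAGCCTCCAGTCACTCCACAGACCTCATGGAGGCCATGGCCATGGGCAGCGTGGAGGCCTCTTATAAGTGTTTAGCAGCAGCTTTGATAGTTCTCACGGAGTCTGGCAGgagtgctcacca
Slc25a3-201: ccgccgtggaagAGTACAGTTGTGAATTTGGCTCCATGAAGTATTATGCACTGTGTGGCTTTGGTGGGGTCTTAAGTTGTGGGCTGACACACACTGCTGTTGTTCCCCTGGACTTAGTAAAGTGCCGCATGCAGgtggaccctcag
Slc25a3-206: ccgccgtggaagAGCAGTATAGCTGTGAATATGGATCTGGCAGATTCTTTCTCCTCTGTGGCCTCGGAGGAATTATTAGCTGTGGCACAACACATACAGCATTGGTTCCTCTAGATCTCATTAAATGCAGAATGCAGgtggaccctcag

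The lesser exon took under 12% of the pair in Slc25a3, Pkm and Flot2. Pkm had 73 and 57 reads of Pkm-201, whose exon is that of the form known from growing tissue, against 1376 and 1194 of Pkm-202, known as the muscle form. The lesser form took 5.04% (4.03 to 6.29) and 4.56% (3.53 to 5.86). Slc25a3-201 had 33 and 22 reads against 961 and 892 of Slc25a3-206, whose exon is the one known from heart and skeletal muscle, or 3.32% and 2.41%. Both genes therefore had 1 form in nearly all reads of the pair, in both libraries. Flot2, a lipid raft protein, had shares of 11.2% and 6.15%. Itga7, the laminin receptor subunit of muscle, had 27 and 19 reads of the lesser form against 97 and 78, or 21.8% and 19.6%. Rab6a had 26 and 17 against 35 and 47, or 42.6% and 26.6% (two-sided Fisher's exact test, p = 0.0633 before adjustment). Calu, a calcium-binding protein of the secretory path, had 85 and 72 against 139 and 105, or 37.9% and 40.7%. The collagen-modifying subunits P4ha2 and P4ha1 had 43.3% and 41.8%, and 40.7% and 36.4%, and their intervals overlap with those of Calu and Plpp1, so that no order among these 4 could be told.

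**Figure D5:**
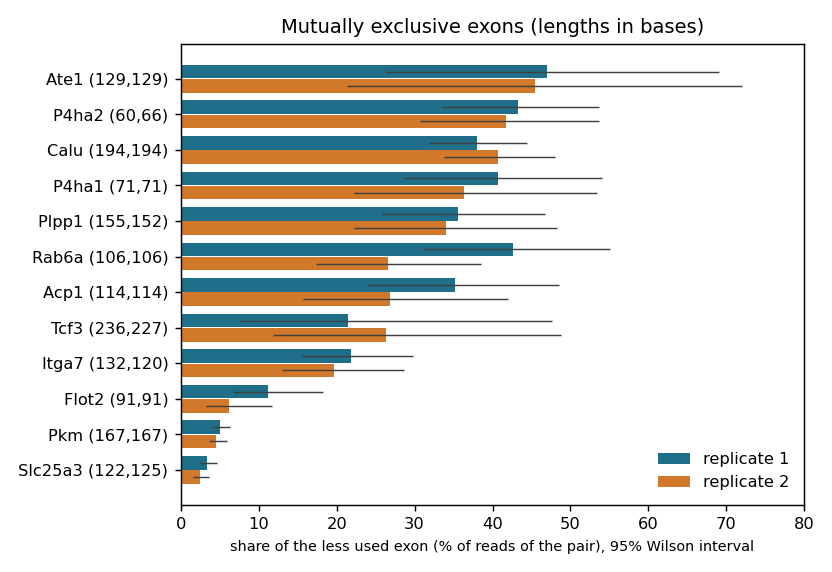
Share of the lesser used of 2 mutually exclusive exons for 12 of the 13 such pairs, in percent of the reads of the pair, as bars for replicate 1 and replicate 2 with Wilson 95% intervals; exon lengths in bases (member, leading model) are in brackets. Pkm and Slc25a3 lie near 5% or lower, and Ate1, P4ha2 and Calu lie above 37% in both libraries.

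A list of 64 genes known for alternative splicing in heart was described as a group. Of the 51 with reads on a Known model 12 had a member (23.5%), against 353 of 11343 protein-coding genes (3.11%), which is a description, since list and members were chosen with results of these data known. Of genes with any non-leading Known model at the read minimum, these were 12 of 15 and 353 of 1216. The 12 genes held 17 members with a median share of 23.0%, against 26.8% for all members, and 11 of the 17 changed the length by a multiple of 3, against 266 of 393. None of the 17 was called between the libraries. Eif4h, a helper of the translation helicase, had 35 and 35 reads with a 60-base exon against 144 and 140 without, or 19.6% and 20.0%. Snap23, a SNARE protein of membrane fusion, had 24 and 17 reads without its 33-base exon against 24 and 27, Mef2a-204 had 9 and 10 without the 24-base exon against 20 and 24, and Dnm2 had 6 and 7 with its 12-base exon against 17 and 10. The exon of Mef2a is known as the beta exon of the MEF2 factors. Counting error was wide at these reads, as in Dnm2, whose share was 26.1% (12.6 to 46.5) and 41.2% (21.6 to 64.0). Over all Known models, mean inclusion of the Dnm2 exon was 45.7%, against a mean pair share of 33.6%. Mean skipping of the 24-base Mef2a exon was 45.1%, against a mean pair share of 30.2% for Mef2a-204.

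Contractile and signalling genes on this list ran from nearly constant to mixed exon use. Tpm1, the cardiac alpha tropomyosin gene, had 40 and 46 reads of a form without a 79-base coding exon against 8235 and 6609 with it, or 0.483% and 0.691%. Skipping this exon moves the stop codon, and the coding sequence changes from 852 to 861 bases. A second Tpm1 form, with 10 and 4 reads, also lacked the 79-base exon and held another 126-base exon in place of that of the leading model. This exon, known from smooth muscle, was in 0.143% and 0.118% of 8419 and 6780 reads that covered the choice. Myom1, an M-band protein, had 11 and 14 reads with a 294-base exon known from embryonic heart, against 140 and 138 without, or 7.28% and 9.21%. These 3 exons were thus used mostly one way in both libraries. Capzb, the beta subunit of the actin capping protein, had 66 and 43 reads without a 113-base exon that holds its stop codon, against 216 and 177, or 23.4% and 19.5%. Camk2d, the calcium and calmodulin-dependent kinase of heart, had 13 and 10 reads of Camk2d-204 without an 89-base exon, against only 8 and 22 of the leading model. Mean skipping of that exon over all Known models was 56.6%, against a mean pair share of 46.6% for Camk2d-204. Over all spliced models the exon was instead included in 69.0% and 65.9% of 155 and 135 reads. A 42-base exon of the kinase's variable region was in 51.0% and 48.5% of 147 and 132 reads on that measure. Trip10, a membrane-curving adaptor, had 20 and 12 reads without a 168-base exon against 57 and 51, and Nfix, a transcription factor, had 8 and 13 without a 123-base exon against 15 and 16.

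Puf60, a splicing factor, gave the second lowest p of the members. It had 44 and 46 reads with a 51-base exon, against 95 and 45 without, or 31.7% (24.5 to 39.8) and 50.5% (40.5 to 60.6). The p was 0.0056 by Fisher's exact test and 1 after adjustment. The lowest p belonged to Ppp3ca, the catalytic subunit of calcineurin, with 31 and 13 reads without a 30-base exon against 44 and 57 with it, or 41.3% and 18.6% (two-sided Fisher's exact test, p = 0.00371, adjusted p = 1). Acly, the citrate-cleaving enzyme of lipid synthesis, had 54.4% and 31.6% of reads on the form with its 30-base exon. Exon inclusion was thus higher in replicate 2 in Puf60 and Ppp3ca and lower there in Acly, with an adjusted p of 1 in each. Ppp3ca and Acly were singled out after their values were seen.

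Genes of RNA-binding proteins held members in 10 of 53 cases with reads (18.9%), against 3.11% of all protein-coding genes, and in 10 of 23 with a non-leading model at the read minimum, against 353 of 1216. Their 14 members had a median share of 28.9%, against 26.8% for all members. Hnrnpa1, Hnrnpa2b1, Hnrnpd and Hnrnpab code for nuclear proteins that coat messenger RNA, and each had a cassette exon of 120 to 159 bases rich in glycine (GGN) and tyrosine (TAT, TAC) codons. These codons made up 74.4% of the whole codons of the Hnrnpa2b1 exon, 65.4% in Hnrnpa1, 58.7% in Hnrnpab and 54.2% in Hnrnpd, against a median of 8% over the 291 coding cassette exons. Of those 291, only 5 exons reached 40%, the fifth being the 21-base exon of Tmem184b. A second cassette exon of Hnrnpd (57 bases) and of Hnrnpa2b1 (36 bases) held none of these codons. Those of 3 of these genes lie at chr6:51464428-51464547 (Hnrnpa2b1, minus strand), chr11:51601750-51601890 (Hnrnpab, minus strand) and chr5:99963731-99963877 (Hnrnpd, minus strand), and are printed with the exon in capitals.
Hnrnpa2b1: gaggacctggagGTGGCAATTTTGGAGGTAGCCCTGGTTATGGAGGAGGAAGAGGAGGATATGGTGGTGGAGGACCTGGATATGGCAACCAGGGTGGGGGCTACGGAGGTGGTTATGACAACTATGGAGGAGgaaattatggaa
Hnrnpab: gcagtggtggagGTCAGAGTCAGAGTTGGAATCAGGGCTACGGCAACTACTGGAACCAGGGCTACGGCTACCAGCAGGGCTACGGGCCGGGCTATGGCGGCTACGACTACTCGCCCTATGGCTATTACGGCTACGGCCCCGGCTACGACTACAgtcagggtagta
Hnrnpd: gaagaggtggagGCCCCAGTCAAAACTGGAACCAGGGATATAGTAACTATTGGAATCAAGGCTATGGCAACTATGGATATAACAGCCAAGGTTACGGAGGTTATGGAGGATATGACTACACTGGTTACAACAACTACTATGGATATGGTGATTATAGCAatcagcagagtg

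The 4 exons differed in which form led. In Hnrnpa2b1 the exon was in the leading model, and the form without it had 24 and 19 reads against 106 and 104, or 18.5% and 15.4%. In Hnrnpa1 the exon was in the lesser form, with 26 and 13 reads against 37 and 41, or 41.3% and 24.1% (two-sided Fisher's exact test, p = 0.0529 before adjustment). In Hnrnpab the lesser form also held it, with 19 and 10 reads against 39 and 31, or 32.8% and 24.4%. Hnrnpd combined 2 exons, with 35 and 22 reads of the form with both, 22 and 13 without the 147-base exon, 13 and 13 without the 57-base exon, and 12 and 14 without either. All 4 combinations were therefore present in both libraries. Over all spliced models that covered them, the 147-base exon was included in 58.1% of 93 reads and 58.1% of 74, and the 57-base exon in 69.3% of 88 and 58.3% of 72.

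Mitochondrial and traffic genes were listed as well. The mitochondrial list had members in 7 of 20 genes with reads (35%), against 3.11% of all protein-coding genes, and in 7 of 9 with a non-leading model at the read minimum, against 353 of 1216. Of its 8 members 6 changed the length by a multiple of 3, against 266 of 393, and the median share was 3.83%, against 26.8% for all members. Such member counts use the net change, since the mutually exclusive exons of Pkm and Slc25a3 are not themselves multiples of 3. These 8 include Pkm-201, described above, although pyruvate kinase is an enzyme of glycolysis and not a mitochondrial protein. A low share could be seen only in genes with many reads. Ndufv3, a subunit of complex I, had 14 and 11 reads with a 1092-base coding exon against 924 and 613 without, or 1.49% and 1.76%, and the exon lengthens the coding sequence from 312 to 1404 bases. Atp5c1, the ATP synthase gamma subunit, had 26 and 10 reads with a 37-base exon that holds another stop codon, against 1247 and 1025, or 2.04% and 0.966%. Mff, the fission factor of the outer membrane, was unlike these 2, with 21 and 19 reads without a 159-base exon against 20 and 21, or 51.2% and 47.5%. Over all Known models of Mff, mean skipping of this exon was 56.9%. The traffic list had members in 8 of 25 genes with reads (32%), against the same 3.11%, and in 8 of 9 with a non-leading model at the read minimum. All 8 members changed the length by a multiple of 3, and their median share was 31.3%. These list counts are descriptions, as for the heart list. Ap2a1, a clathrin adaptor subunit, had 15 and 13 reads without a 66-base exon against 43 and 45, or 25.9% and 22.4%. None of the members on these 3 lists was called between the libraries.

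App combined several in-frame cassette exons, while the members of Kcnip2 and Smyd1 each differed from the leading model by a single in-frame exon. App held 5 models that differed in exons of 54, 57 and 168 bases, the last of which codes for the protease inhibitor domain. The leading model, with the 57- and 168-base exons, had 33 and 24 reads. Without the 57-base exon there were 28 and 23 reads, with the 54-base exon 22 and 22, with that exon and without the 57-base one 13 and 12, and with it but without both others, the form known from neurons, 4 and 6. The 54-base exon was in 38.2% and 43.5% of 123 and 108 reads, and the 57-base exon in 52.5% and 49.0% of 120 and 102. Kcnip2, a subunit of the transient outward potassium channel, had 37 and 24 reads without a 96-base exon and 31 and 26 with a 54-base one, against 62 and 52 of the leading model. Smyd1, a muscle histone methyltransferase, had 47 and 47 reads without a 39-base exon against 116 and 114, or 28.8% and 29.2%, within counting error of each other. App apart from App-204, Kcnip2 and Smyd1 were chosen after their values were seen.

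Members annotated as decay targets and those with an out-of-frame single coding exon had lower median shares than all members. These medians were 9.33% and, for such exons in pairs of 2 protein-coding models, 18.5%, against 26.8%. Of the 15 members annotated as decay targets, Yaf2-202, of a Polycomb-associated factor, had the highest shares, with 18 and 15 reads and 31.6% and 44.1%. Low shares were found where the leading model had many reads. The Prdx6 member, of a peroxide-reducing enzyme, had 4 and 4 reads against 211 and 202 (1.86% and 1.94%), Ndufa7-202, of a complex I subunit, had 16 and 8 against 525 and 355, and Myoz2-203, of the Z-disc protein calsarcin, had 7 and 17 against 517 and 459. Rbm39-225, of a splicing factor, had 3 and 4 reads against 71 and 70, and Actg1-206, of gamma actin, 10 and 15 against 209 and 167. In Pecam1 the 23-base exon was in 7 and 11 reads against 13 and 10, with another stop codon and a coding sequence of 2181 in place of 2148 bases. The mean share of this Pecam1 form was 43.7%, so that it was not among the low ones. A leading model annotated as a decay target was found in 5 pairs, among them E2f6-201, of a transcriptional repressor, with 50 and 49 reads of it against 46 and 41 of the member. These genes, apart from Pecam1, were named after their values were seen, and whether decay set any of these shares was not tested.

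Some members changed an end of the coding sequence, or only the 3′ UTR. Prepl, a serine hydrolase, had 21 and 13 reads with a 536-base exon against 38 and 36 without, and the exon moved the start codon so that the coding sequence was 2175 in place of 1914 bases long. Aen, a nuclease induced by p53, had 20 and 15 reads of a form without a 487-base exon against 18 and 22 with it, and this form carries no coding sequence. Stau2, an RNA transport protein, had 17 and 13 reads with a 131-base exon that holds a start codon against 14 and 20. In Aen and Stau2 the order of the 2 forms differed between the libraries, at under 25 reads per form. Rbpms, an RNA-binding protein of heart, had the highest mean share of a 3′ UTR exon, with 16 and 12 reads without a 104-base exon against 17 and 11, or 48.5% and 52.2%.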

How the data were processed

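Long-read RNA sequencing of heart was deposited as 1 table per library of read counts for each transcript model, which the authors obtained with TALON, per the file headers. These deposited counts are raw integers of single libraries, on mm10 with GENCODE M21, per the text deposited beside the tables. Which aligner and filters were used, and in which versions, was not given in the sources used. Whether alignment of very short exons moved reads between models was not tested. Structures came from the deposited annotation, and coding sequences, transcript types and exon sequences from GENCODE M21.

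Members had at least 3 reads in each library. Reads of other models of a gene were left out of the pair share. Members and gene lists were chosen with earlier results of these data known. Named members were the 15 most read, those of the heart splicing list, the 5 shortest and 5 longest single exons, and the 10 highest shares among pairs with 20 or more reads in each library. Listed genes and mutually exclusive exons with 10 or more reads in each library were also named, and not all are described. Some items that these rules take are not reported here. The test was Fisher's exact test on counts, with scipy 1.17.1 and Benjamini-Hochberg adjustment with statsmodels 0.14.6, at 0.05. Scaling used edgeR 4.0.16 and DESeq2 1.42.0 only as alternatives for the CPM. The test was tried on simulated data. A planned search for an intron motif was not run, since no genome of this build was used here.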

Additional observations from a re-analysis of the deposited data

How the results depend on the processing

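No paired analysis was possible because the labels gave only 1 group. No result reversed. The number of members was 393 and fell to 269 with at least 5 reads in each library and to 137 with 10, and ran from 475 to 544 when the rule was applied to 1 library. The percent of exons that are multiples of 3 was 63.2 over all exons, 67.7 where both models were protein-coding, 74.9 for wholly coding exons, and 60.3 to 60.6 with 1 library. The median share of 26.8% became 29.7% with at least 5 reads and 32.5% with 10, and 28.1% where both models were protein-coding. It became 23.1% over all Known reads of the gene, 28.1% over spliced models of all kinds, and 25% to 25.5% with 1 library. The median level of 11.3 CPM became 10.9 on all reads off the spike-ins, and 11.3 to 11.6 with 1 library, where single reads set the steps of the scale. No variant of the test called a member. Among the named members, 32 of 126 recomputed shares moved by more than their spread, which for 2 libraries is itself poorly known. The search for TGCATG in introns was not run.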
